A study of Mus musculus with 6 samples.

Results

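The genes described here are 40 mouse genes of ribosome biogenesis and of the transcription factor MYC, chosen by symbol, 40 of the 31253 features in the count tables. All 40 were found. They were grouped by role as MYC and its partner MAX (2 genes), nucleolar proteins (6), box C/D (3) and box H/ACA (4) small nucleolar ribonucleoproteins, large subunit assembly factors (8), small subunit processing factors (5), RNA polymerase I subunits (3), translation factors (4), and nucleotide and polyamine enzymes (5). The samples were 10x Genomics single-cell 3' RNA-seq libraries of sorted mouse bone marrow, 3 from wildtype (WT) animals and 3 from Txnip knock-out (Txnip-KO) animals. Txnip encodes thioredoxin-interacting protein, which binds thioredoxin and restrains glucose uptake. The surface markers of the sort, the strain, age and sex, the knock-out allele and whether it acts in all tissues were not given in the sources used here. Nor was it given whether each library came from 1 animal, and the tests therefore rest on the spread between libraries, which may be technical.

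Ribosomes are built in the nucleolus. RNA polymerase I makes a long precursor of ribosomal RNA, small nucleolar ribonucleoproteins modify it at guided positions, and assembly factors cleave it and load it with ribosomal proteins to form the small and large subunits. MYC, as a dimer with MAX, binds the E-box CACGTG and raises transcription of many genes of this pathway, of translation factors, and of nucleotide and polyamine synthesis. In the marrow, haematopoietic stem cells are known for low protein synthesis, which is higher in dividing progenitors.

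After quality filters and removal of predicted doublets, 41513 of 48277 barcodes were kept, between 6023 and 7827 per library. Total UMI counts per library, in all deposited barcodes, ran from 61368478 to 80876483. Txnip itself had 19607, 14903 and 18717 UMIs in WT 1 to 3 and 585, 666 and 28 in Txnip-KO 1 to 3, so that every library matched its label. Cells were assigned to types by counting detected marker genes, which placed 36014 cells (86.8%) in 18 gates. A gate is named "-like" after its markers, since no cell annotation was used. The 13 gates with at least 50 cells in every library (34492 cells) were tested. The Txnip-KO libraries had fewer cells with division marker UMIs at equal depth (15.8% ± 1.51 against 24.8% ± 1.40, SD, n = 3 each) and fewer UMIs per cell (mean of the library medians 7651 ± 647 against 9009.5 ± 145). Of 41352 distinct kept barcodes, 160 occurred in more than 1 library.

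The members were highest in megakaryocyte-like and erythroid-like cells and lowest in basophil-like cells of WT marrow. On CPM, UMI counts scaled to the same total in every library and gate, the mean WT level was highest in the megakaryocyte-like gate for 18 of 40 members, in the erythroid-like gate for 14, in the granulocyte-monocyte progenitor-like gate for 4, in the mast-like gate for 2, and in the monocyte-like and basophil-like gates for 1 each. It was lowest in the basophil-like gate for 25 members, in the NK-like gate for 10, in the plasmacytoid dendritic-like gate for 4 and in the mast-like gate for 1. These levels are a description, with no test between gates. Summed over the members, WT cells spent 1.15%, 1.18% and 1.17% of their UMIs on these genes in the erythroid-like gate of libraries 1 to 3. In the basophil-like gate the same sums were 0.463%, 0.474% and 0.419%. The 3 erythroid-like values were thus all above the 3 basophil-like values.

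The spread between gates differed from gene to gene. Npm1, which encodes nucleophosmin, a chaperone of histones and ribosomal proteins, had a WT level of 2757 ± 7.67 CPM (SD, n = 3) in the erythroid-like gate and 825 ± 39.5 in the basophil-like gate. Wdr12, a subunit of the PES1-BOP1-WDR12 complex that matures the large subunit, had the widest span, 191 ± 10.0 CPM in the erythroid-like gate and 27.4 ± 2.98 in the NK-like gate, a ratio of 6.99. Max had the narrowest, 95.2 ± 10.6 CPM in the basophil-like gate against 51.8 ± 9.24 in the mast-like gate, a ratio of 1.84. Max was the only member whose WT level was highest in basophil-like cells. For 16 of the 40 members every WT value of the top gate exceeded every WT value of the next gate, and for the other 24 these neighbours overlapped.

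The WT level of Myc (chr15:61985391-61990374 in GRCm38, plus strand) was highest in progenitors. Its mean was 220.0 ± 18.9 CPM in the granulocyte-monocyte progenitor-like gate and 207 ± 19.9 in the erythroid-like gate, values that overlapped. It was 168 CPM in the lymphoid-primed-like, 164 in the stem cell-like, 155 in the megakaryocyte-like, 147 in the B cell-like, 139 in the mast-like and 111 in the monocyte-like gate. The lower end held the conventional dendritic-like (83.8), NK-like (66.9), innate lymphoid-like (63.7), basophil-like (55.2) and plasmacytoid dendritic-like (47.7 ± 10.6) gates, so that the top and bottom gates differed 4.62-fold in the Myc level.

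Over all kept cells, most members were lower in Txnip-KO marrow, while Myc and Max were not called. UMI counts were summed per library and tested with edgeR's quasi-likelihood test, and a gene was called at a Benjamini-Hochberg adjusted p under 0.05 over all genes tested. Of 40 members, 26 (65.0%) fell and 0 rose, against 19.3% of 14648 genes lower and 21.8% higher. At an unadjusted p under 0.05, 28 members were lower and 0 higher in edgeR. No share of all genes was taken at that threshold, here or in the gates below, so those counts have no background. DESeq2 called 28 lower and 0 higher (backgrounds 21.7% and 19.3%). The median log2 fold change was -0.32 over the members and 0.04 over all genes. The summed share of UMIs was 0.890%, 0.930% and 0.879% in WT 1 to 3 and 0.692%, 0.784% and 0.720% in Txnip-KO 1 to 3, without overlap.

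**Figure D1:**
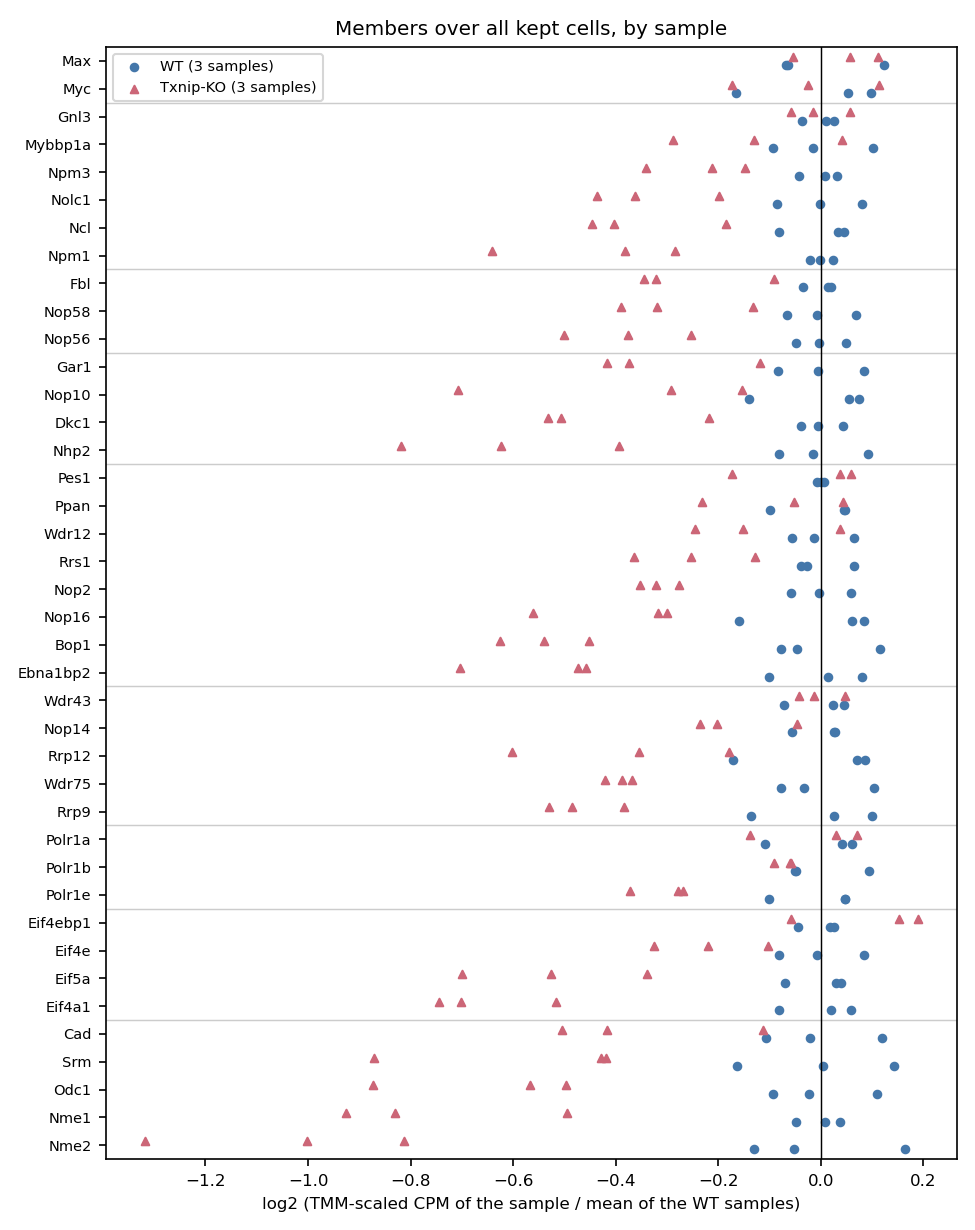
For each of the 40 members (rows, grouped by role between grey lines), the TMM-scaled CPM of each library over all kept cells is drawn relative to the mean of the 3 WT libraries on a log2 axis, with WT as circles and Txnip-KO as triangles. The Txnip-KO values of Nme2 (60.4 to 85.8 CPM against 138 to 169 in WT) reach farthest to the left, while those of Myc, Gnl3 and Wdr43 overlap the WT values.

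The largest changes over all kept cells were in the nucleotide and polyamine enzymes, of which 5 of 5 fell (median log2 fold change -0.64). Nme2, a nucleoside diphosphate kinase, measured 138, 145 and 169 TMM-scaled CPM in WT and 85.8, 60.4 and 75.2 in Txnip-KO, a log2 fold change of -1.03 ± 0.13 (SE, edgeR adjusted p = 0.00168). Every Txnip-KO library was lower than every WT library. In the GRCm38 annotation Nme2 lies at chr11:93949814-93956259 and its neighbour and close paralogue Nme1 at chr11:93956979-93968521, both on the minus strand. Nme1 measured 349, 369.9 and 362 CPM in WT and 189.7, 256 and 203 in Txnip-KO, also without overlap (-0.74). How reads that match both genes were counted was not given in the sources used here, so the split between Nme1 and Nme2 is uncertain. The annotated read-through transcript Gm20390 had at most 2 UMIs in any library. Odc1, ornithine decarboxylase, and Srm, spermidine synthase, make polyamines and fell by 0.64 and 0.56 on the log2 scale. Cad, which starts pyrimidine synthesis, changed least of the group, with 30.0, 33.0 and 28.2 CPM in WT and 22.8, 28.1 and 21.4 in Txnip-KO (-0.33 ± 0.11, edgeR adjusted p = 0.0404). The highest Txnip-KO value of Cad lay just below the lowest WT value, and the call was lost without any 1 library other than Txnip-KO 2 (edgeR adjusted p from 0.0609 to 0.139).

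Among translation factors, 2 of 4 fell. Eif4a1, the RNA helicase that unwinds messenger leaders, measured 709, 760.5 and 781 CPM in WT and 448, 525 and 461 in Txnip-KO (-0.65 ± 0.08, edgeR adjusted p = 0.0016), with no overlap. Eif5a, a factor of elongation that carries a polyamine-derived residue, fell by 0.51 on the log2 scale. Eif4e, the cap-binding protein, was at -0.21 and missed the threshold (edgeR adjusted p = 0.0616), which it passed with replicate number as a block (edgeR adjusted p = 0.0181). Eif4ebp1, which encodes an inhibitor of the cap-binding protein, measured 80.1, 84.1 and 83.6 CPM in WT and 79.3, 91.7 and 94.2 in Txnip-KO (0.10 ± 0.08, edgeR adjusted p = 0.342). The Eif4ebp1 values of the groups overlapped.

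The ribonucleoproteins that modify ribosomal RNA were lower in both classes. All 3 genes for proteins of the box C/D particles, which methylate ribosomal RNA, fell. Nop56, a core protein of these particles, measured 193, 200.3 and 187 CPM in WT and 137, 162 and 149 in Txnip-KO (-0.37 ± 0.08, edgeR adjusted p = 0.00773). Fbl, the methyltransferase fibrillarin, changed least, from 202, 209 and 209 to 163, 194 and 165 CPM (-0.25 ± 0.08, edgeR adjusted p = 0.042). Both genes had all Txnip-KO libraries below WT, with Txnip-KO 2 nearest, and the Fbl call was lost without any 1 library other than Txnip-KO 2 (edgeR adjusted p from 0.0791 to 0.136). Of the 4 genes for box H/ACA proteins, which act in pseudouridylation and also serve telomerase, 3 fell. Nhp2 measured 194, 219 and 203 CPM in WT and 116, 156 and 133 in Txnip-KO (-0.60 ± 0.11, edgeR adjusted p = 0.00448). Gar1 had 81.4, 91.3 and 85.8 against 64.5, 79.4 and 66.5 CPM (-0.30 ± 0.09, edgeR adjusted p = 0.0336), a call lost without Txnip-KO 1, Txnip-KO 3, WT 2 or WT 3 (0.0679, 0.0793, 0.122 and 0.0868). Nop10 was not called (-0.37, edgeR adjusted p = 0.0618), but was with replicate number as a block (edgeR adjusted p = 0.0103). Dkc1, the pseudouridine synthase dyskerin, was the third of the group to fall (-0.41).

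Of 6 nucleolar proteins, 4 fell (Ncl, Npm1, Npm3 and Nolc1). Npm1 measured 2115, 2181 and 2144 CPM in WT and 1376, 1764 and 1648 in Txnip-KO (-0.43 ± 0.09, edgeR adjusted p = 0.00865), again without overlap. Gnl3, which encodes the GTPase nucleostemin, had 156, 161 and 163 CPM in WT and 158, 166 and 153 in Txnip-KO (-0.00 ± 0.06, edgeR adjusted p = 0.960), with groups that overlapped. The WT values of Gnl3 lay inside the range of the Txnip-KO values. Mybbp1a was the other nucleolar member not called (-0.12).

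Assembly factors were split. For the large subunit, 5 of 8 fell (Nop2, Nop16, Bop1, Rrs1 and Ebna1bp2). Ebna1bp2 measured 111, 126 and 120.2 CPM in WT and 73.1, 86.6 and 85.7 in Txnip-KO (-0.54 ± 0.09, edgeR adjusted p = 0.00303), without overlap. Within the complex of PES1, BOP1 and WDR12, Bop1 fell by 0.54 on the log2 scale, while Pes1 had 53.2, 53.5 and 53.7 CPM in WT and 54.9, 55.7 and 47.4 in Txnip-KO (-0.02 ± 0.08, edgeR adjusted p = 0.841). Wdr12 was not called either (-0.11). For the small subunit, 3 of 5 fell (Wdr75, Rrp9 and Rrp12). Rrp9, a protein of the U3 particle, measured 31.0, 36.5 and 34.7 CPM in WT and 24.3, 26.1 and 23.6 in Txnip-KO (-0.47 ± 0.08, edgeR adjusted p = 0.00363). Wdr43 had 99.2, 101 and 92.9 against 96.8, 101 and 94.8 CPM (-0.00 ± 0.06, edgeR adjusted p = 0.985). The Wdr43 groups overlapped, while the Rrp9 groups did not.

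Of the RNA polymerase I subunits, 1 of 3 fell. Polr1e measured 22.0, 24.4 and 24.4 CPM in WT and 18.2, 19.4 and 19.6 in Txnip-KO (-0.31 ± 0.07, edgeR adjusted p = 0.0114), a call lost without WT 2 (0.0591) or WT 3 (0.0509). Polr1a, the largest subunit, had 24.9, 25.2 and 22.4 CPM in WT and 25.4, 24.7 and 22.0 in Txnip-KO (-0.01 ± 0.08, edgeR adjusted p = 0.933). The Polr1a groups overlapped. Myc measured 137, 159 and 165 CPM in WT and 136, 151 and 166 in Txnip-KO (-0.02 ± 0.10, edgeR adjusted p = 0.869). Max measured 63.1, 63.2 and 71.9 in WT and 71.4, 63.6 and 68.8 in Txnip-KO (0.04 ± 0.08, edgeR adjusted p = 0.710). For both genes the groups overlapped.

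The count over all cells was smaller in cells without division marker UMIs and without either of 2 WT libraries. At full depth, 57.6% of WT and 45.2% of Txnip-KO cells had a UMI of 12 division markers (means of 3 libraries). In cells without any such UMI, 8 of 40 members were lower, near the background of 14.8% of genes there, and Gnl3 was higher (0.25, edgeR adjusted p = 0.0400, background 15.6%). The median over the members was then -0.09, against 0.02 over all genes. The 8 were Bop1, Ebna1bp2, Eif4a1, Nhp2, Nme1, Nme2, Odc1 and Rrp9, and each was also called when any 1 library was left out. Of the 26, 15 were, and the 11 that were not were Ncl, Npm3, Nolc1, Fbl, Nop58, Gar1, Nop16, Rrs1, Rrp12, Polr1e and Cad. Without WT 2 the count of lower members was 15 (background 11.7%), and without WT 3 it was 17 (background 12.4%). With equal cell numbers per gate drawn from every library it was 30 (background 22.7%). All 12 division markers were lower over all cells (median log2 fold change -0.85), and their part in the members' change was not tested.

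Promoters of 4 genes are shown because the motif is the site that the MYC-MAX dimer binds and because these genes fell over all cells. In RefSeq windows of GRCm38.p6, from 250 bases before to 50 after the annotated start, 32 of 40 members had a window. CACGTG, which reads the same on both strands, was found in 9 of the 32 (28.1%) and in 8.09% of 27025 genes with a window of that length. A gene was counted if any of its windows held the motif. The members were chosen partly for their link to MYC, so the difference between these shares may come from that choice and is no test. The 9 were Nme1, Eif4a1, Eif5a, Nop2, Eif4e, Pes1, Mybbp1a, Max and Wdr43. Of these 9, 4 fell, and of the 23 members whose window lacked these letters, 16 fell. A match is a description of the sequence and not a measurement of binding. The windows are printed 5' to 3' on the gene's strand with the motif in capitals. That of Nme1, 1 of 2 listed for that gene, lies at chr11:93968223-93968522 (minus strand), with the motif 18 bases before the start of this listed transcript, which lies inside the Nme1 span given above. That of Eif4a1 lies at chr11:69672374-69672673 (minus strand), with the motif 189 bases before. That of Eif5a, 1 of 6 listed for that gene, lies at chr11:69921337-69921636 (minus strand), with the motif 74 bases before. This listed start and the motif lie inside the annotated Eif5a span, chr11:69916714-69921958. That of Nop2 lies at chr6:125131633-125131932 (plus strand), with the motif 60 bases before.
Nme1: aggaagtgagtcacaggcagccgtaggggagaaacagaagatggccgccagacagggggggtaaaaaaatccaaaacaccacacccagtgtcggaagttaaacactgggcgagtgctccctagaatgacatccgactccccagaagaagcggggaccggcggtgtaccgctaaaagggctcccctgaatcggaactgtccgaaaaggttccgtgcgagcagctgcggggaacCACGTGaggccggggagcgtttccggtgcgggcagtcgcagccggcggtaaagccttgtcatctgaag
Eif4a1: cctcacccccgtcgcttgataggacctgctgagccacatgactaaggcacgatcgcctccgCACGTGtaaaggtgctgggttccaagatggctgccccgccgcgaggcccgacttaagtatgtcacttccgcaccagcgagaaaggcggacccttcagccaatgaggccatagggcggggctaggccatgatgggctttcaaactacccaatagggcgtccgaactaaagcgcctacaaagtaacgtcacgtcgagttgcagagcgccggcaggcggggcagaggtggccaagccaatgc
Eif5a: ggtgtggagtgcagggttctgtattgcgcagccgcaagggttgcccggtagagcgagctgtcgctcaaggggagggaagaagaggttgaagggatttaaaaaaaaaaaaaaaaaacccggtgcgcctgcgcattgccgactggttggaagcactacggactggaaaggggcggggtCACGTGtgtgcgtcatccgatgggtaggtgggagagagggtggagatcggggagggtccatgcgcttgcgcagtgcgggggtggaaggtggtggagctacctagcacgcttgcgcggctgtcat
Nop2: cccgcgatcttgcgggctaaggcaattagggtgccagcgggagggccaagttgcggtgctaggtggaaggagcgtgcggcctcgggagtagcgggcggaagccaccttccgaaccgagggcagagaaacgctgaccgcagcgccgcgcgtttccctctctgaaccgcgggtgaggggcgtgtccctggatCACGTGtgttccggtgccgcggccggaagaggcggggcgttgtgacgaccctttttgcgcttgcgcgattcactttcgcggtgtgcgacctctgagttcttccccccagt

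By gate, at least 1 member was called lower in 12 of 13 gates. In the basophil-like gate 0 of 39 members were called lower and 6 higher (15.4%, against 9.01% of genes higher). Each gate was fitted on its own, so log2 fold changes refer to the other genes of the same gate. Over 516 tests of a member in a gate, 240 were lower and 6 higher. The share of all genes was not pooled over gates. Gate by gate it ran from 2.24% to 22.2% lower and from 2.87% to 19.9% higher. The share of members called lower exceeded that of all genes in each of the 12 gates, by the least in the innate lymphoid-like gate (5.13% against 2.24%).

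**Figure D2:**
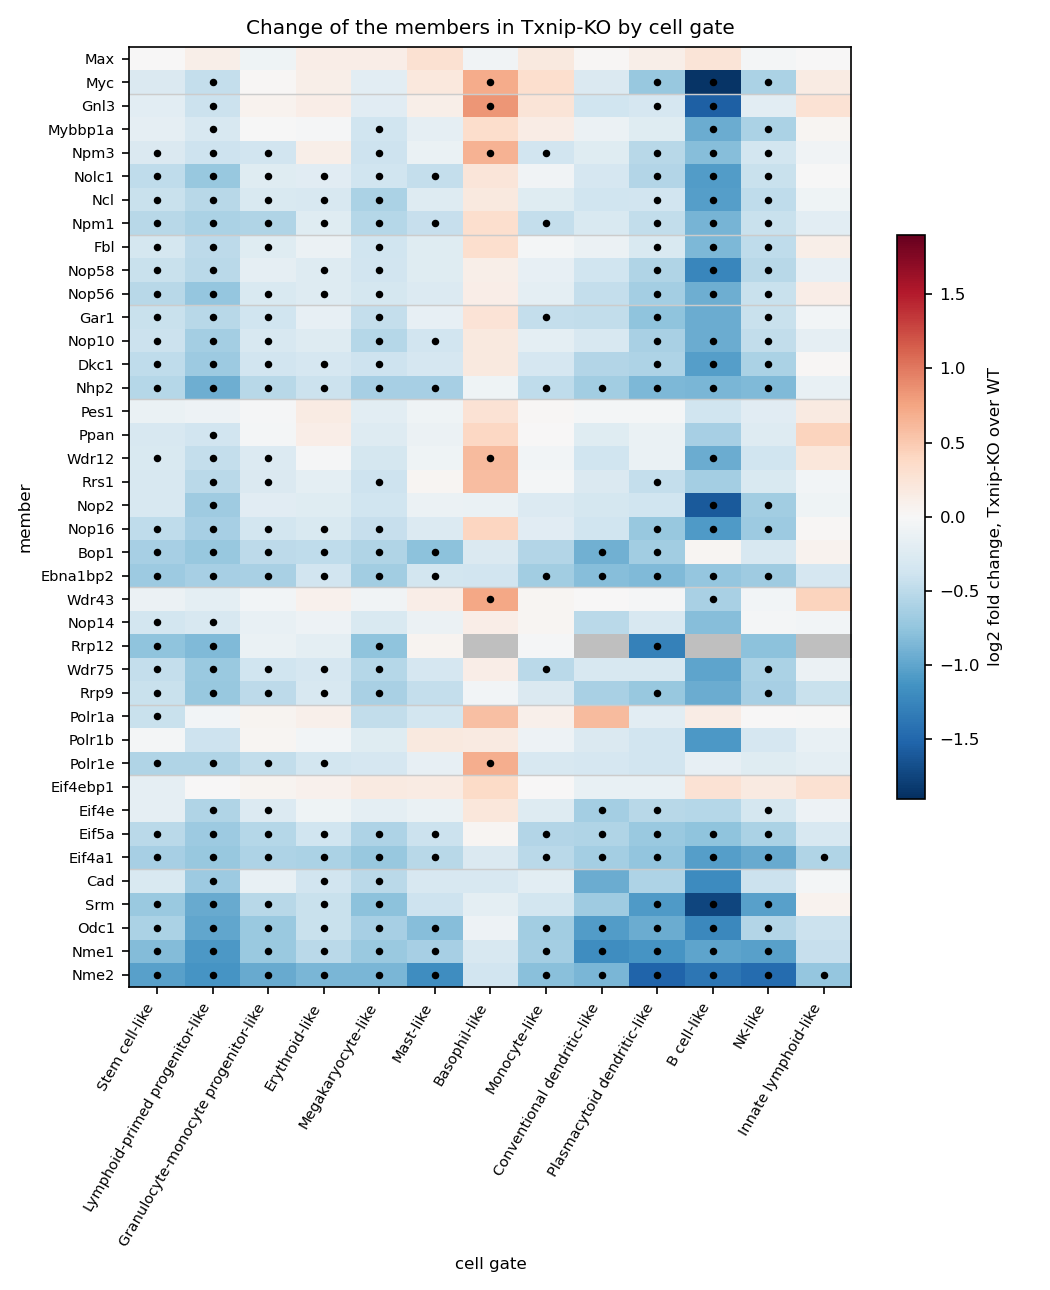
Colour gives the log2 fold change of each member (rows, grouped by role) in each of the 13 gates (columns), blue where lower and red where higher in Txnip-KO, a dot marks an edgeR adjusted p under 0.05, and grey marks a gene not tested. Dots on blue number 240, and the 6 dots on red are all in the basophil-like column.

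In the lymphoid-primed-like gate, the progenitors with Flt3 and Dntt, 34 of 40 members fell and 0 rose, against 20.4% of genes lower and 19.4% higher. DESeq2 called 32 lower and 0 higher (backgrounds 16.9% and 13.9%), and at an unadjusted p under 0.05 edgeR had 0 higher. All 6 nucleolar proteins, all 3 box C/D genes, all 4 box H/ACA genes and all 5 nucleotide and polyamine enzymes were among them. Nme2 measured 134, 143 and 162 CPM in WT and 76.5, 53.6 and 72.4 in Txnip-KO (-1.12 ± 0.12, edgeR adjusted p = 3.33e-05). Nme1 measured 301, 324 and 313 in WT and 118, 169 and 151 in Txnip-KO (-1.10 ± 0.11, edgeR adjusted p = 2.29e-05). Neither gene's groups overlapped. Odc1 fell by 0.99 and Nhp2 by 0.93 on the log2 scale. Of the 34, 30 were called whichever library was left out, 26 were called in cells without division markers (background 8.97%), and 24 passed in both. The summed share was 0.870%, 0.910% and 0.867% in WT and 0.576%, 0.651% and 0.659% in Txnip-KO. Cells with division markers at equal depth made up 24.5% of this gate in WT and 13.4% in Txnip-KO. Stem cell markers summed to 262 to 325 CPM in WT and 427 to 588 in Txnip-KO (6 of 7 higher), and 11 of 12 division markers were lower. Their part in the members' change was not tested.

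In the stem cell-like gate, cells with Hlf, Mecom and Procr, 27 members fell and 0 rose, against 13.7% of genes lower and 12.5% higher. DESeq2 called 22 lower and 0 higher (backgrounds 9.65% and 7.33%), and edgeR at an unadjusted p under 0.05 had 0 higher. All box C/D and all box H/ACA genes fell. Nme2 measured 124, 131 and 157 CPM in WT and 89.8, 50.2 and 57.6 in Txnip-KO (-1.03 ± 0.15, edgeR adjusted p = 3.11e-05). Txnip-KO 1 was the highest Txnip-KO library for Nme2 and still lay below all WT libraries. The summed share was 0.852%, 0.931% and 0.849% in WT and 0.668%, 0.685% and 0.644% in Txnip-KO. Of the 27, 17 were called whichever library was left out, and 16 in cells without division markers (background 6.35%). Without WT 2 the count was 18 (background 8.52%), and with 1 more marker required for the gate it was 16 (background 9.005%). Markers of the lymphoid-primed list summed to 278 to 293 CPM in WT and 398 to 448 in Txnip-KO within this gate (3 of 7 higher), and their part in the result was not tested.

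In the granulocyte-monocyte progenitor-like gate, marked by Mpo and Elane, 25 members fell and 0 rose, against 22.2% of genes lower and 19.9% higher. DESeq2 also called 25 lower and 0 higher (backgrounds 18.9% and 14.9%), and edgeR at an unadjusted p under 0.05 had 0 higher. Nme2 measured 193, 196 and 225 CPM in WT and 122, 82.2 and 112 in Txnip-KO (-0.96 ± 0.12, edgeR adjusted p = 5.19e-05). All Txnip-KO libraries were below WT. In cells without division markers the count was 8 (background 5.96%), and with 1 more gate marker it was 12 (background 14.7%). At full depth, 90.4% of WT and 77.5% of Txnip-KO cells of this gate had a division marker UMI (means of 3 libraries). The cells without one were thus few, and their share differed between genotypes. All 12 division markers were lower in this gate, and all 7 tested stem cell markers were higher. Their part in the members' change was not tested.

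The erythroid-like and megakaryocyte-like gates, where the members' WT levels were highest, showed 20 and 26 members lower and 0 higher. The backgrounds were 16.4% lower and 14.9% higher in the erythroid-like gate, and 10.7% lower and 9.02% higher in the megakaryocyte-like gate. DESeq2 called 18 and 23 lower (backgrounds 13.5% and 7.70%) and 0 higher in each (backgrounds 11.3% and 4.66%). At an unadjusted p under 0.05 edgeR had 0 higher in each. In the erythroid-like gate Nme2 measured 119.8, 124 and 153 CPM in WT and 87.6, 57.3 and 73.9 in Txnip-KO (-0.87 ± 0.14, edgeR adjusted p = 0.00106). In the megakaryocyte-like gate it measured 167, 159 and 190.2 in WT and 107, 69.7 and 109.5 in Txnip-KO (-0.87 ± 0.15, edgeR adjusted p = 0.00137). The groups did not overlap in either gate. Leaving out WT 2 gave 8 erythroid-like (background 8.52%) and 14 megakaryocyte-like calls (background 4.93%). Leaving out WT 3 gave 12 in the erythroid-like gate (background 10.04%), and leaving out WT 1 gave 17 in the megakaryocyte-like gate (background 6.21%). In erythroid-like cells without division markers 4 members were lower (background 2.16%). With 1 more gate marker 9 were lower (background 12.6%) and 1 higher (background 10.9%). Stem cell markers summed to 111 to 129 CPM in WT and 152 to 210.0 in Txnip-KO erythroid-like cells (4 of 5 tested higher), and to 349 to 395 and 519 to 600.4 in megakaryocyte-like cells (5 of 5 tested higher). Division markers summed to 1132 to 1500 and 640.0 to 941 in erythroid-like cells (10 of 12 lower), and 3 of 12 were lower in megakaryocyte-like cells. Their part in the members' change was not tested.

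**Figure D3:**
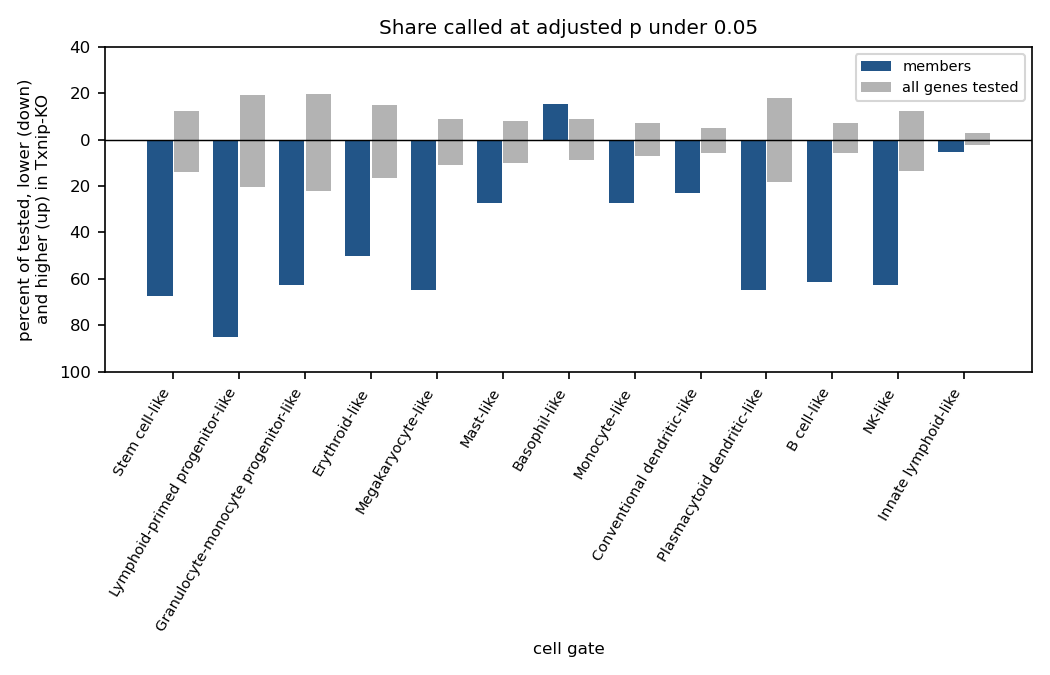
Bars give the percent of tested members (dark) and of all tested genes (grey) called in Txnip-KO at an edgeR adjusted p under 0.05 in each gate, downward for lower and upward for higher. The longest dark bar downward is that of the lymphoid-primed-like gate (85.0% of members against 20.4% of genes), and the basophil-like gate alone has a dark bar upward (15.4% against 9.01%).

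Among mast-like and monocyte-like cells, 11 members fell in each gate and 0 rose. The mast list shares Cpa3, Gata2, Ms4a2 and Hdc with the basophil list, and the mast-like gate required 4 markers. It could thus be met by shared markers alone, and 848 of its 1170 cells had only the minimum. Whether these cells were mast cells or other cells of the basophil and mast lineages was not tested. The backgrounds were 9.91% lower and 7.92% higher for mast-like cells, and 7.01% lower and 7.3% higher for monocyte-like cells. DESeq2 called 10 and 9 lower (backgrounds 6.36% and 5.77%) and 0 higher (backgrounds 3.66% and 4.61%). At an unadjusted p under 0.05 edgeR had 0 higher in either gate. Nme2 measured 151, 176 and 188 CPM in WT and 90.5, 52.6 and 83.7 in Txnip-KO mast-like cells (-1.18 ± 0.15, edgeR adjusted p = 3.69e-05). In monocyte-like cells it measured 189.9, 203 and 235 in WT and 129, 102 and 127 in Txnip-KO (-0.80 ± 0.13, edgeR adjusted p = 0.00493). Both sets of Txnip-KO values lay below WT. In monocyte-like cells without division markers 0 of 26 members tested were lower in edgeR, where 0.530% of 5095 genes were, and Nme2 there was at 0.25. Dividing cells at equal depth made up 52.3% of this gate in WT and 37.7% in Txnip-KO. Leaving out WT 1, 2 or 3 gave 6, 1 or 2 monocyte-like calls (backgrounds 4.17%, 0.851% and 0.619%). For mast-like cells, leaving out WT 2 gave 6 (background 4.07%), cells without division markers gave 1 of 35 tested (background 0.608%), and a stricter gate gave 5 (background 2.13%). Stem cell markers summed to 27.3 to 28.9 CPM in WT and 47.8 to 67.4 in Txnip-KO monocyte-like cells (3 of 3 tested higher), where 8 of 12 division markers were lower. In mast-like cells the granulocyte-monocyte progenitor list summed to 4167 to 5879 and 1880.0 to 2377 (7 of 7 lower), and 11 of 12 division markers were lower. The part of these in the members' change was not tested.

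In the dendritic gates, 26 members fell in plasmacytoid dendritic-like and 9 in conventional dendritic-like cells, and 0 rose in either. The backgrounds were 18.1% lower and 18.2% higher in the plasmacytoid gate, and 5.77% lower and 5.02% higher in the conventional gate. DESeq2 called 24 and 8 lower (backgrounds 14.5% and 4.24%) and 0 higher (backgrounds 12.9% and 3.54%). At an unadjusted p under 0.05, edgeR had 0 members higher in the plasmacytoid and 1 in the conventional gate. In plasmacytoid dendritic-like cells Nme2 measured 115, 119 and 157 CPM in WT and 58.2, 32.4 and 47.2 in Txnip-KO (-1.52 ± 0.18, edgeR adjusted p = 7.99e-05). In conventional dendritic-like cells the largest fall was that of Nme1, with 228, 224 and 252 CPM in WT and 87.5, 122 and 104 in Txnip-KO (-1.17 ± 0.14, edgeR adjusted p = 0.00177). Neither showed overlap between groups. In cells without division markers 12 of 39 members tested were lower in the plasmacytoid gate (background 15.03%) and 3 of 36 in the conventional gate (background 2.38%). In the conventional gate, leaving out WT 3 gave 2 calls (background 0.7497%), and leaving out Txnip-KO 1, 2 or 3 gave 5, 4 or 16 (backgrounds 2.34%, 1.21% and 8.33%). Within the plasmacytoid gate, division markers summed to 639 to 964 CPM in WT and 170 to 372 in Txnip-KO (12 of 12 lower), and lymphoid-primed markers to 1922 to 2174 and 2744 to 3339 (6 of 7 higher). Of the 8 plasmacytoid markers themselves 4 were lower and 3 higher. Within the conventional gate, division markers summed to 528 to 797 CPM in WT and 119 to 440 in Txnip-KO (6 of 12 lower). The part of these in the members' change was not tested.

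Among NK-like cells, marked by Ncr1 and Gzma, 25 members fell and 0 rose, against 13.4% of genes lower and 12.2% higher. DESeq2 called 23 lower and 0 higher (backgrounds 11.7% and 8.08%), and edgeR at an unadjusted p under 0.05 had 0 higher. Nme2 measured 99.5, 99.99 and 140.1 CPM in WT and 49.7, 39.2 and 34.9 in Txnip-KO (-1.46 ± 0.15, edgeR adjusted p = 0.000116), with the groups apart. In NK-like cells without division markers 25 members were also lower (background 12.6%), of which 23 were among the 25. Dividing cells at equal depth were few, 8.22% in WT and 6.27% in Txnip-KO. Leaving out WT 1 gave 14 calls (background 9.33%), and leaving out WT 3 gave 16 (background 7.19%). Within this gate NK markers summed to 13359 to 15064 CPM in WT and 11826 to 12822 in Txnip-KO (5 of 9 lower), and the common lymphoid or pro-B list to 54.7 to 73.0 and 189 to 217 (1 of 2 tested higher). Of 5 neutrophil markers tested 3 were higher. The part of these in the members' change was not tested.

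Innate lymphoid-like cells, marked by Gata3 and Rora, had the fewest falls of the 12 gates with any, 2 of 39 members, against 2.24% of genes lower and 2.87% higher. None rose (0 in edgeR and 0 in DESeq2, where 0.835% of genes did, with 1 at an unadjusted p under 0.05 in edgeR). The summed share overlapped between groups, at 0.662%, 0.584% and 0.648% in WT and 0.575%, 0.602% and 0.584% in Txnip-KO. Nme2 measured 103, 88.7 and 124 CPM in WT and 64.8, 56.7 and 69.5 in Txnip-KO (-0.73 ± 0.16, edgeR adjusted p = 0.0147). Eif4a1 measured 688, 621 and 738 in WT and 424, 506 and 447 in Txnip-KO (-0.57 ± 0.10, edgeR adjusted p = 0.00325). Both had Txnip-KO values below all WT values. The Nme2 call was lost without WT 3 (edgeR adjusted p = 0.0832), whereas the Eif4a1 call was kept whichever library was left out. In cells without division markers 5 of 36 members tested were lower, against 1.82% of 7093 genes.

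**Figure D4:**
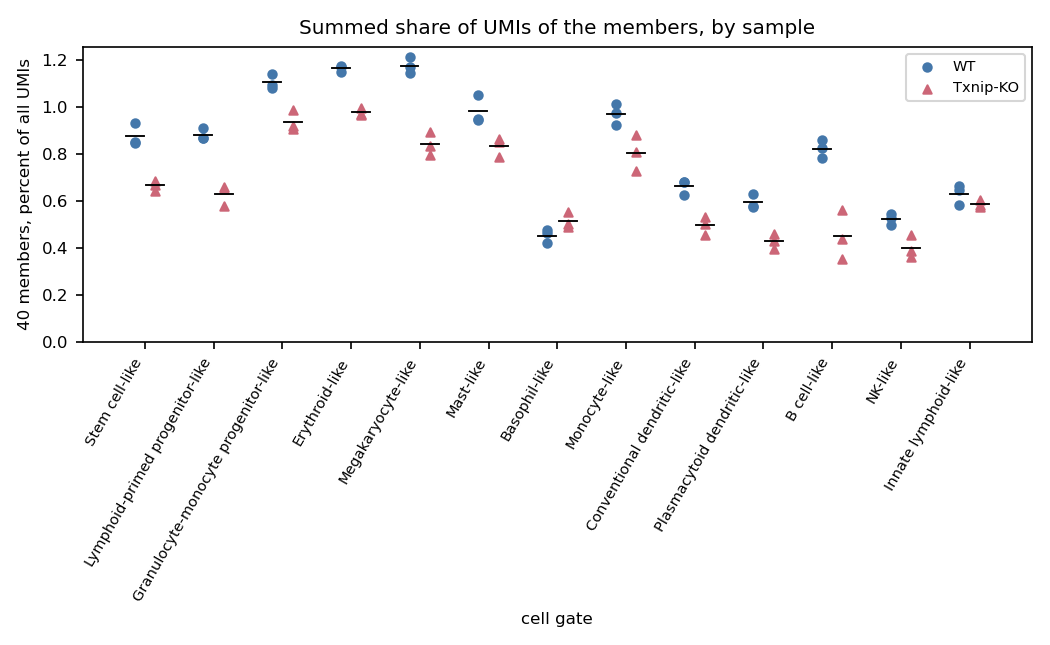
Points give the summed UMIs of the 40 members as a percent of all UMIs for each library in each gate (WT circles, Txnip-KO triangles), and black lines give the means of 3 libraries. Groups overlap in the innate lymphoid-like gate, Txnip-KO lies above WT in the basophil-like gate (0.490% to 0.554% against 0.419% to 0.474%), and it lies below WT in the other 11 gates.

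In the B cell-like gate, marked by Cd79a and Ms4a1, the falls were large but rested on few cells. The 10 genes most raised in this gate over the other kept cells included Vpreb3 and Ebf1, which are on the common lymphoid or pro-B list. The gate may thus mix B cells of several stages, and the part of such a mix in the members' change was not tested. Of 39 members, 24 fell and 0 rose, against 5.58% of genes lower and 7.33% higher, and the median log2 fold change was -0.94 against 0.02 for all genes. DESeq2 called 21 lower and 0 higher (backgrounds 3.82% and 5.00%), and edgeR at an unadjusted p under 0.05 had 0 higher. Myc measured 119, 155 and 184 CPM in WT and 1.78, 87.0 and 43.6 in Txnip-KO (-1.86 ± 0.52, edgeR adjusted p = 0.0379). The Txnip-KO 1 value rests on 1 UMI. Srm measured 89.5, 90.3 and 110.3 in WT and 5.33, 64.7 and 21.8 in Txnip-KO (-1.75 ± 0.45, edgeR adjusted p = 0.03). Gnl3, which was not called over all cells, measured 152, 157 and 194 in WT and 23.1, 80.3 and 70.8 in Txnip-KO (-1.56 ± 0.31, edgeR adjusted p = 0.0125). Txnip-KO 1 was the lowest library for all 3 genes, and none of them overlapped between groups. All 6 nucleolar proteins and all 3 box C/D genes were among the 24.

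The B cell-like gate held 184, 156 and 196 cells in WT and 154, 79 and 167 in Txnip-KO, with a median of 5733 UMIs per cell in WT and 3239 in Txnip-KO. Without WT 1, 2 or 3, the count of lower members was 2, 0 or 0, when only 0.250%, 0.029% or 0.044% of all genes were called lower, so few calls of any gene were made there. Without Txnip-KO 3 it was 8 (background 1.39%), with stricter cell filters 10 (background 1.93%), in cells without division markers 15 (background 3.89%), and with 1 more gate marker 1 (background 0.390%). No member of the 24 was called in every fit with 1 library left out. B cell markers summed to 6828 to 7374 CPM in WT and 8799 to 21174 in Txnip-KO (6 of 7 higher), and the division markers to 586 to 933 and 148 to 543 (6 of 11 tested lower). The part of these in the members' change was not tested.

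In the basophil-like gate, marked by Mcpt8 and Prss34, 6 of 39 members (15.4%) rose and 0 fell, against 9.01% of genes higher and 8.8% lower. DESeq2 called 5 higher and 0 lower (backgrounds 5.14% and 5.51%). At an unadjusted p under 0.05, edgeR had 13 members higher and 4 lower, with no share of all genes taken at that threshold. Gnl3 measured 53.7, 56.5 and 45.5 CPM in WT and 109, 87.8 and 70.1 in Txnip-KO (0.83 ± 0.16, edgeR adjusted p = 0.0013). Wdr43, of the small subunit processome, measured 49.996, 43.6 and 41.5 in WT and 71.6, 73.4 and 82.8 in Txnip-KO (0.74 ± 0.14, edgeR adjusted p = 0.00155). All Txnip-KO libraries were above all WT libraries for both. Myc measured 46.3, 57.6 and 65.3 in WT and 84.0, 108 and 89.8 in Txnip-KO (0.70 ± 0.15, edgeR adjusted p = 0.00342). Npm3, a nucleolar relative of nucleophosmin, measured 81.6, 81.4 and 66.7 in WT and 106, 139.6 and 128 in Txnip-KO (0.66 ± 0.14, edgeR adjusted p = 0.00251). These 4 were called whichever library was left out and did not overlap between groups.

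The other 2 were less steady. Polr1e measured 18.8, 26.6 and 24.3 CPM in WT and 36.8, 28.8 and 49.1 in Txnip-KO basophil-like cells (0.69 ± 0.20, edgeR adjusted p = 0.0255), and was not called without Txnip-KO 1, Txnip-KO 3 or WT 1 (edgeR adjusted p = 0.0703, 0.0999 and 0.110) or under DESeq2 (adjusted p = 0.0932). Wdr12 measured 48.2, 55.2 and 40.1 in WT and 63.1, 99.3 and 65.9 in Txnip-KO (0.61 ± 0.18, edgeR adjusted p = 0.0228), and was not called without Txnip-KO 2 (edgeR adjusted p = 0.129), WT 1 or WT 3. The summed share was 0.463%, 0.474% and 0.419% in WT and 0.502%, 0.554% and 0.490% in Txnip-KO, so that the Txnip-KO values were above all WT values in this gate. The nucleotide and polyamine enzymes did not share the direction, with a median log2 fold change of -0.30 and 0 of 5 called. Without doublet removal 2 of 40 members were lower and 4 higher (backgrounds 7.83% and 7.62%), and Npm3 was no longer called (0.31, edgeR adjusted p = 0.147). The mean summed share was then 0.550% ± 0.029 in WT and 0.565% ± 0.081 in Txnip-KO (SD), means that lay within these spreads. The median log2 fold change over the members was then 0.016, against 0.008 over all genes, and it was 0.18 in the main fit. In cells without division markers 6 of 36 members tested were higher (background 4.74%). Of those, 4 were among the 6 called in the main fit, and Myc was not (0.30, edgeR adjusted p = 0.545).

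The makeup of the basophil-like gate differed between genotypes. It held 611, 804 and 699 cells in WT and 447, 166 and 153 in Txnip-KO, or 10.5% ± 0.821 and 3.85% ± 3.096 of kept cells. Its own 8 markers summed to 32345 to 40706 CPM in WT and 15593 to 20504 in Txnip-KO (5 of 8 lower). Stem cell markers summed to 49.3 to 60.9 and 125 to 151, and division markers to 805 to 1307 and 477 to 829 (8 of 12 lower). The part of these differences in the members' rise was not tested.

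Myc was lower in 4 gates, higher in 1 and not called in 8, whereas Max was called in none (log2 fold changes from -0.08 to 0.29). In NK-like cells Myc measured 69.6, 72.0 and 71.1 CPM in WT and 42.3, 58.4 and 40.6 in Txnip-KO (-0.60 ± 0.13, edgeR adjusted p = 0.00534), without overlap. This call was kept whichever library was left out, but not without doublet removal (-0.11, edgeR adjusted p = 0.505). In plasmacytoid dendritic-like cells it measured 44.2, 40.6 and 63.2 in WT and 16.5, 36.4 and 35.3 in Txnip-KO (-0.72 ± 0.23, edgeR adjusted p = 0.025). That call was lost without WT 3 (-0.49, edgeR adjusted p = 0.153), without doublet removal (-0.18, 0.509), in cells without division markers (-0.05, 0.899) and with a stricter gate (-0.13, 0.857).

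In lymphoid-primed-like cells Myc measured 146, 183 and 198 CPM in WT and 108, 101 and 176 in Txnip-KO (-0.45 ± 0.17, edgeR adjusted p = 0.0488). The groups overlapped, since Txnip-KO 3 was above WT 1. The call was lost without Txnip-KO 1, Txnip-KO 2, WT 2 or WT 3 (edgeR adjusted p = 0.153, 0.198, 0.128 and 0.176), under DESeq2 (adjusted p = 0.252), without doublet removal (0.055) and with stricter cell filters (0.0556). With replicate number as a block it had an adjusted p of 0.0013. In B cell-like cells the Myc call was lost without Txnip-KO 3, WT 1, WT 2 or WT 3 (edgeR adjusted p = 0.128, 0.0986, 0.128 and 0.155), under DESeq2 (adjusted p = 0.353), with stricter cell filters (0.101) and with a stricter gate (-0.90, 0.519). In stem cell-like cells Myc had 162, 178 and 167 CPM in WT and 145, 116 and 161 in Txnip-KO (-0.27, edgeR adjusted p = 0.0558), with Txnip-KO values below WT but no call, although it was called with replicate number as a block (edgeR adjusted p = 0.0206). In the other 7 gates without a call, the log2 fold change of Myc ran from -0.28 in conventional dendritic-like to 0.31 in monocyte-like cells, and it was 0.02 in granulocyte-monocyte progenitor-like cells, where 25 other members fell.

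**Figure D5:**
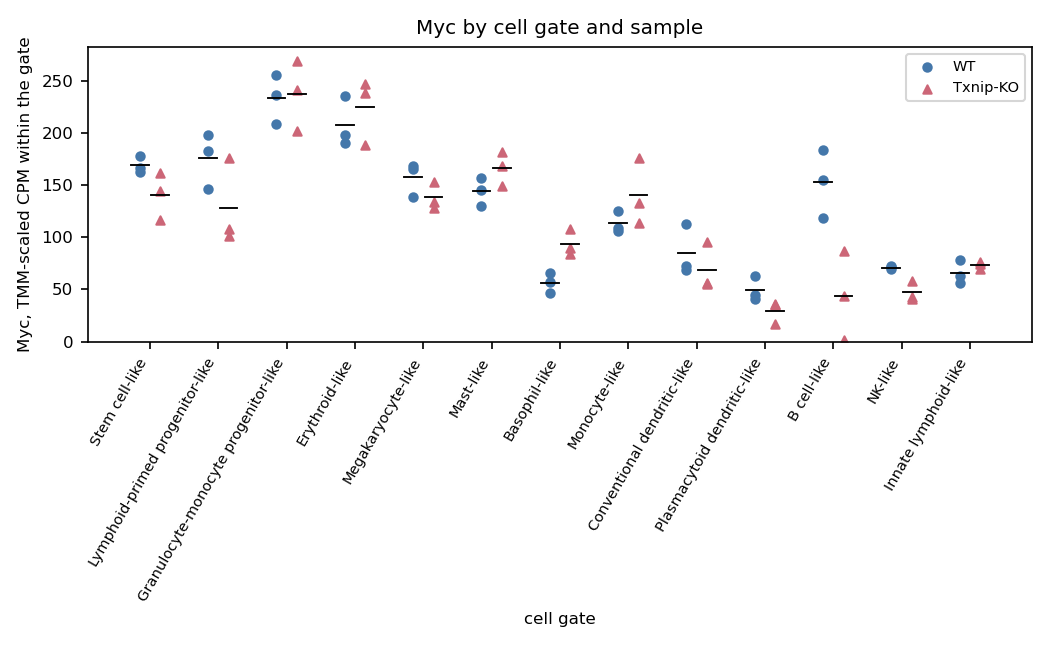
Points give TMM-scaled CPM of Myc for each library in each gate (WT circles, Txnip-KO triangles), with black lines at the means of 3 libraries, and since each gate was scaled on its own, heights are compared within a gate. Txnip-KO points lie above WT in the basophil-like gate and below WT in the stem cell-like, plasmacytoid dendritic-like, B cell-like and NK-like gates.

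Across gates, 36 of 40 members fell in at least 1, 22 in at least 7 and 7 in at least 11. The share of all genes that fell in as many gates was not taken, so these counts have no background. Nme2 and Eif4a1 fell in 12 of 13 gates, and Nme1, Nhp2, Ebna1bp2, Eif5a and Odc1 in 11. Npm1 fell in 10. The members called in none were Max, Pes1, Polr1b and Eif4ebp1. The 6 that rose in basophil-like cells all fell in at least 1 other gate. The effect of the genotype was compared between gates in 1 edgeR model with the library as a block. Of 40 members, 31 differed between gates at an adjusted p under 0.05, against 32% of 12514 genes. The 9 without such a call were Max, Nop2, Bop1, Pes1, Wdr75, Rrp9, Polr1b, Eif4ebp1 and Cad. In cells without division markers, where the megakaryocyte-like gate was left out, the count was 21. The share of all genes in that fit was not taken, so this count has no background.

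Against the stem cell-like gate, the gates that stood apart were again the basophil-like and B cell-like ones. The genotype effect was more positive in basophil-like cells for 20 members (background 4.55% of genes) and more negative in B cell-like cells for 12 (background 3.2%). For conventional dendritic-like cells 1 member was more positive (Polr1a, background 0.471%), and for erythroid-like cells 1 (Npm1, background 1.06%). For plasmacytoid dendritic-like cells 1 was more negative (Nme2, background 1.96%). The remaining 7 gates had no member with a called difference from the stem cell-like gate.

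Other genes of the same pathways, taken as lists without the 40 members and chosen with earlier results known, were compared over all cells in the same fit, where 19.3% of genes were lower and 21.8% higher. Of 32 further small subunit processome genes, 18 fell and 0 rose (median log2 fold change -0.22), among them Utp6 (-0.61), Mphosph10 (-0.45) and Utp18 (-0.44). Of 32 further large subunit assembly genes, 14 fell and 0 rose (median -0.22), led by Brix1 (-0.50), Rsl24d1 (-0.48) and Mrto4 (-0.47). Of 21 further nucleotide and polyamine genes, 14 fell and 0 rose (median -0.33), led by Azin1, the antizyme inhibitor (-0.69), Ctps, which makes CTP (-0.58), and Adsl, of purine synthesis (-0.53). Of 18 further genes of RNA polymerase I and its factors, 8 fell and 2 rose, with Polr2f at -0.48, Polr1c at -0.44 and Taf1d at 0.42. Polr2f is shared by the 3 nuclear RNA polymerases. Of 19 further translation factors 7 fell and 2 rose, with Eif2s1 at -0.62, Eif3g at -0.47 and Eif4ebp2, another cap-binding inhibitor, at 0.39. Of 13 MYC network genes 3 fell and 3 rose, shares near those of all genes. The MAX partner Mxd3 (-1.08) and the helicases Ruvbl2 (-0.61) and Ruvbl1 (-0.58) were lower, and the MAX partners Mxd4 (0.48), Mxi1 (0.43) and Mga (0.27) were higher.

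In the lymphoid-primed-like gate 23 of the 32 further small subunit genes and 19 of the 32 further large subunit genes fell, and 0 rose, against 20.4% of genes lower and 19.4% higher. In the basophil-like gate, where 8.8% of genes were lower and 9.01% higher, 0 of the 32 small subunit genes fell and 2 rose, and 0 of the 32 large subunit genes fell and 3 rose. The shares that rose were near or below that of all genes. The polymerase I list there had 0 lower and 3 higher of 18, Taf1d among them (0.99).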

How the data were processed

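The deposited files were UMI count matrices, 1 per library, with barcodes and 31253 features, from Chromium Single Cell 3' V3.1 kits per the labels' protocols. CASAVA 1.8, Cell Ranger 6.1.1 and Seurat 2.3.4 are named in the submitters' processing notes. The genome build, annotation and counting of strand and of ambiguous reads were not given in the sources used here. Gene positions come from GENCODE M21 on GRCm38, which held 31107 of the feature IDs and all 40 members.

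The members and lists were chosen with earlier results of these data known. Barcodes with at least 500 genes, at least 1000 UMIs and at most 10% mitochondrial UMIs passed (44399). Doublet scores came from Scrublet (scanpy 1.11.5). The top-scoring 0.8% per 1000 barcodes of each library (2886, or 6.50% of passing cells) were removed, whereas Scrublet's own threshold marked 1394. Gates required 3 to 5 detected markers of a list, taken in a fixed order, and these thresholds were set after the data were seen. Cells with division markers were counted after thinning each cell to 1000 UMIs. Cells without division markers, as an alternative, were chosen without thinning, at the full depth of each cell. Counts were summed per library and gate. In R 4.3.3, edgeR 4.0.16 was run with filterByExpr, TMM scaling and the quasi-likelihood test of genotype over all 6 libraries, with Benjamini-Hochberg adjustment over all genes tested and a threshold of 0.05. DESeq2 1.42.0 was an alternative. Shares of all genes at an unadjusted p under 0.05 were not taken, so member counts at that threshold have no background. The effect was compared between gates by an F test of the gate by genotype terms with library as a block. The edgeR steps were tested on simulated data. Summaries used Python 3.11.15 with pandas 2.3.3.

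Values in every library are given for Myc, Max, the members with the largest and smallest absolute log2 fold change of each role over all cells, and the called member with the largest fall or rise of each gate. Some others (Nme1 over all cells, and in the B cell-like, basophil-like and lymphoid-primed-like gates) were added after their values were seen. Of each list without members at most 3 called genes are named. Same-numbered libraries deviated together from their group means (Pearson correlation across genes 0.174, 0.148 and 0.194, against -0.154 to -0.039 for other pairs). The labels do not state that equal numbers are pairs. The main fits of each gate and of all cells were therefore unpaired, with genotype as the only term. Replicate number as a block was an alternative. No libraries were duplicates, since the chi-square per degree of freedom between replicates was 10.9 to 91.7. Alternatives covered scaling, test, low-count filter, pairing, doublets, cell filters, dividing cells, equal cells per gate, stricter gates and leaving out each library. Cells in 5 smaller gates were not tested.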

Additional observations from a re-analysis of the deposited data

Results flagged for a closer look

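The members below had a genotype effect that differed from that in the stem cell-like gate by a test of the difference itself (edgeR interaction term, adjusted p under 0.05 over all genes), which made them results for a closer look. Values are the log2 fold change in the gate minus that in the stem cell-like gate.

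In B cell-like cells the effect was more negative for 12 members. The largest differences were those of Myc (-1.64), Gnl3 (-1.40) and Srm (-1.11). The others were Nop58 (-0.88), Mybbp1a (-0.80), Wdr12 (-0.69), Ncl (-0.67), Npm3 (-0.58), Nop10 (-0.56), Fbl (-0.55), Eif4a1 (-0.46) and Npm1 (-0.40). For Myc the value rests partly on a library with 1 UMI.

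In basophil-like cells the effect was more positive for 20 members. RNA polymerase I was represented by Polr1e (1.18) and Polr1a (0.89), and Gnl3 (0.97) and Myc (0.92) stood next to them in size. The others were Nop16 (0.85), Npm3 (0.85), Rrs1 (0.83), Wdr12 (0.81), Wdr43 (0.76), Npm1 (0.75), Ppan (0.67), Nolc1 (0.65), Gar1 (0.64), Dkc1 (0.62), Nop56 (0.60), Fbl (0.58), Nop10 (0.54), Nme2 (0.54), Ncl (0.52) and Eif5a (0.45).

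Outside these 2 gates, the difference was 1.03 for Polr1a in conventional dendritic-like cells, 0.33 for Npm1 in erythroid-like cells and -0.48 for Nme2 in plasmacytoid dendritic-like cells.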

How the results depend on the processing

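Of the alternatives, 491 values for counts and sums stayed within 1.5 times the count or 1 SD of the sum, and 103 did not. For single members, 382 values kept direction and side of the threshold, 30 lost the call and 21 changed sign, the sign changes mostly in members with log2 fold changes near 0.

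In cells without division marker UMIs, members lower were 8 over all cells (1 higher), 12 in plasmacytoid dendritic-like, 15 in B cell-like, 4 in erythroid-like, 5 in innate lymphoid-like, 3 in conventional dendritic-like, 0 in monocyte-like, 1 in mast-like and 8 in granulocyte-monocyte progenitor-like cells. The shares of all genes in these fits are given with each gate above. Signs changed for Myc (0.055), Max (-0.057), Gnl3 (0.25), Pes1 (0.093), Wdr43 (0.18) and Polr1a (0.30) over all cells and Nme2 in monocyte-like cells (0.25). The mean summed share (WT, then Txnip-KO, in percent of UMIs) was 0.582 and 0.544 over all cells, 0.452 and 0.386 in plasmacytoid dendritic-like, 0.251 and 0.341 in basophil-like, 0.951 and 0.852 in erythroid-like, 0.546 and 0.467 in innate lymphoid-like, 0.514 and 0.422 in conventional dendritic-like, 0.404 and 0.449 in monocyte-like, 0.688 and 0.678 in mast-like, 0.857 and 0.738 in granulocyte-monocyte progenitor-like, 0.722 and 0.532 in lymphoid-primed-like and 0.747 and 0.574 in stem cell-like cells. It was 0.481 in WT NK-like and 0.591 in WT B cell-like cells.

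Without doublet removal, 2 members were lower in basophil-like (background 7.83%) and 4 in innate lymphoid-like cells (background 3.34%). Sums were then 0.606 and 0.490 in NK-like, 0.550 and 0.565 in basophil-like, 0.676 and 0.609 in innate lymphoid-like, and 0.486 in Txnip-KO plasmacytoid dendritic-like cells. With no low-count filter, 2 were lower in basophil-like and 4 in innate lymphoid-like cells, and Max was at -0.0058 over all cells. With stricter cell filters, 10 were lower in B cell-like (background 1.93%) and 6 in monocyte-like cells (background 2.23%). In basophil-like cells 10 were then higher (background 9.25%). Sums were 0.647 in WT plasmacytoid dendritic-like, 0.875 in WT B cell-like, and 0.513 and 0.6001 in basophil-like cells.

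With a stricter gate, members lower were 1 in B cell-like, 9 in erythroid-like and 5 in mast-like cells. They were 12 in granulocyte-monocyte progenitor-like and 16 in stem cell-like cells, and the shares of all genes lower are given with each gate above. Members higher were 1 in erythroid-like (background 10.9%) and 1 in conventional dendritic-like cells (background 7.59%). Sums were 0.495 and 0.376 in plasmacytoid dendritic-like, 0.3796 and 0.437 in basophil-like, 1.23 and 1.06 in erythroid-like, 0.516 and 0.413 in conventional dendritic-like, 0.905 and 0.720 in monocyte-like, 0.879 and 0.740 in mast-like, 1.19 and 1.06 in granulocyte-monocyte progenitor-like, 0.932 and 0.678 in lymphoid-primed-like, 0.589 in WT B cell-like, 0.520 in Txnip-KO innate lymphoid-like and 0.687 in Txnip-KO stem cell-like cells. The cause of these shifts was not tested.

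Leaving out each library in turn gave 15 to 29 members lower over all cells, 14 to 28 in NK-like, 0 to 29 in B cell-like, 0 to 2 in basophil-like, 8 to 21 in erythroid-like, 14 to 27 in megakaryocyte-like, 1 to 3 in innate lymphoid-like, 2 to 16 in conventional dendritic-like, 1 to 14 in monocyte-like and 6 to 12 in mast-like cells. It gave 0 to 1 higher in conventional dendritic-like and in monocyte-like cells. The 1 came without Txnip-KO 3 in conventional dendritic-like (background 7.68%) and without Txnip-KO 1 in monocyte-like cells (background 5.85%). Members whose effect differed between gates were 25 to 30, with no share of all genes taken there. The share of all genes called lower also varied between these fits. It ran from 11.7% to 19.9% over all cells and from 0.029% to 12.8% in B cell-like cells. Over all cells the log2 fold change ran from -0.063 to 0.018 for Gnl3, -0.015 to 0.10 for Max, -0.11 to 0.029 for Myc, -0.090 to 0.045 for Pes1, -0.068 to 0.047 for Polr1a and -0.053 to 0.017 for Wdr43.

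With replicate number as a block, 28 members were lower over all cells, and the count was 7 higher in basophil-like and 16 lower in mast-like cells. The pairing moved no count by over 1.5 times. It changed 21 calls of a member, of which 20 were gained and 1 (Wdr43 in B cell-like cells) was lost. The DESeq2 test of the effect between gates was not run, the stricter gate has no meaning over all cells, and the megakaryocyte-like gate had too few cells without division markers. Few cells limited the depth of the B cell-like gate, where 1 Txnip-KO library held 79.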
